A study of Mus musculus with 6 samples.

Results

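Transcripts of 10 regulators of meiotic arrest and of the egg cell cycle were followed from ovulated oocytes to 2-cell (2C) embryos with and without maternal Kdm1a. The genes were taken by symbol, as Gpr3, Pde3a, Mos, Fbxo43, Wee2, Cdc25b, Cdc20, Bub1b, Aurkc and Plat, and all 10 of the 10 were found among the 47728 gene rows of every deposited gene table. Compared with control 2C embryos, embryos lacking maternal Kdm1a held more Fbxo43, Plat, Cdc25b, Pde3a and Wee2 transcript by 3.15 to 12.8 times, and less Gpr3 and Cdc20 transcript by 4.58 and 3.49 times. Mos, Bub1b and Aurkc lay within a ratio of 2 between the embryo groups.

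Mutant oocytes were 3 libraries of ovulated eggs from LSD1 FL/FL, ZP3Cre+ females, in which Cre driven by the oocyte promoter of Zp3 deletes Kdm1a (also called LSD1), a histone demethylase. The report of the study instead writes the genotype of these females as Kdm1a fl/Δ with Zp3-Cre. Mutant embryos, called M-Z+ because only the maternal Kdm1a supply is missing, were 3 libraries of 2C embryos collected at embryonic day 1.5 after such females were mated to wild type CB6 males. By the report of the study, the M-Z+ embryos taken were those that had cleaved, which fewer M-Z+ than control embryos did. None of the M-Z+ embryos from such mothers reached the blastocyst stage there. Eggs and embryos were pooled by litter, and superovulation was used to obtain embryos for sequencing. Control oocytes and control 2C embryos came from an earlier study. They are called wild type in the series text and Kdm1a fl/fl in the report of the study, and neither their ages nor their number of libraries is given in the sources used here. Study of origin and Kdm1a genotype cannot be told apart wherever a mutant group is set beside a control group.

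Fully grown oocytes wait in prophase of the first meiotic division while cyclic AMP and inhibitory phosphorylation keep the kinase CDK1 inactive. After ovulation the egg stops again, at metaphase of the second division, where MOS signalling and the inhibitor FBXO43 (also called EMI2) keep the anaphase-promoting complex from destroying cyclin B. Transcription is largely silent in this period, so the egg works from stored mRNAs, and many of these are cleared after fertilization as the embryonic genome becomes active at the 2C stage.

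Stored mRNAs of oocytes can be held with short poly(A) tails and activated through a cytoplasmic polyadenylation element, TTTTAT or TTTTAAT in DNA letters, that lies shortly before the polyadenylation hexamer AATAAA or ATTAAA. These elements were sought on the transcript strand, after the expression values had been seen, in the last 100 bases of the GENCODE gene models on GRCm38, and the hexamers in the last 50. A 30-base stretch is shown for Fbxo43, Cdc25b and Wee2, whose embryo groups lay on opposite sides of control oocytes, for Mos and Bub1b, which were low in both embryo groups, and for Cdc20, which was high in control embryos. Gpr3, also on opposite sides and high in control embryos, and Plat and Pde3a, also low in both embryo groups, are not shown. Elements and hexamers are in capitals.
Fbxo43 3′ end, chr15:36150080-36150109 (minus strand): aagtggttaaaATTAAAactaataATTAAA
Cdc25b 3′ end, chr2:131198451-131198480 (plus strand): gtcctctgttgggggccttggttcAATAAA
Wee2 3′ end, chr6:40466766-40466795 (plus strand): taTTTTAATccagatcattgtaAATAAAga
Mos 3′ end, chr4:3870673-3870702 (minus strand): taccactagggcatatttttaggaAATAAA
Bub1b 3′ end, chr2:118641556-118641585 (plus strand): cactgtgtaTTTTATAATAAAatagttttt
Cdc20 3′ end, chr4:118432911-118432940 (minus strand): TTTTATTTTATtttttctAATAAAgttcgt
In Wee2 the element TTTTAAT began 20 bases before the hexamer, in Bub1b TTTTAT began 6 bases before it, and in Cdc20 the nearer of the overlapping TTTTAT copies began 13 bases before it. Aurkc (18 bases) and Plat (60 bases) also carried an element, so that 5 of the 10 regulators had one against 16.7% of 21759 protein-coding genes searched alike. A hexamer was present in 9 of the 10, all except Pde3a, against 72.4% of those genes. Genes with an element were found on both sides of the embryo comparison described below, as Wee2 and Plat were higher in M-Z+ embryos and Cdc20 was lower, and Fbxo43 and Cdc25b, both higher, had none in the stretch searched. A match of letters describes the sequence only.

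Promoters of 250 bases before to 50 bases after the RefSeq start (GRCm38.p6) were given for 6 of the 10 genes, Gpr3, Wee2, Cdc25b, Cdc20, Bub1b and Aurkc. Those of Wee2, which had the higher mean in M-Z+ embryos, and Gpr3, which had the higher mean in control embryos, are shown because these genes differed in opposite directions. Capitals mark CANNTG (the E-box letters, of the kind that the oocyte factor FIGLA binds), TAATTG and TAATTA (letters of the kind that the oocyte factor NOBOX binds), CCAAT and GGGCGG (the GC box), each sought on both strands.
Wee2 promoter, chr6:40442613-40442912 (plus strand): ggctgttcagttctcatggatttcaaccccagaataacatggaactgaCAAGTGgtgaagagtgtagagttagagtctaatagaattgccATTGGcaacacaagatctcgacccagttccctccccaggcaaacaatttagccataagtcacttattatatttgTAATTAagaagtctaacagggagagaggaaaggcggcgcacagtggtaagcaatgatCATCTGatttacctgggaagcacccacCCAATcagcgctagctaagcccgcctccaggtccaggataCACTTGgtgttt
Gpr3 promoter, chr4:133212487-133212786 (minus strand): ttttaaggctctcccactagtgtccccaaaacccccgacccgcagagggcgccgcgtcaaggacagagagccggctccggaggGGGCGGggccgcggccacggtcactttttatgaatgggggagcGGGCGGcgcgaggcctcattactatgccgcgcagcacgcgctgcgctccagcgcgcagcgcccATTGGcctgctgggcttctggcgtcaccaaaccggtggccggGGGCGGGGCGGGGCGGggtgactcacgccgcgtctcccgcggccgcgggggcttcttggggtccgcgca
The Wee2 promoter held 3 E-boxes, a TAATTA match 86 bases before the start and no GC box. The Gpr3 promoter held 5 GC boxes, 3 of them overlapping each other by a base just before the start, and neither E-box nor NOBOX letters. All 6 promoters held CCAAT, which 37.4% of all 32851 promoters hold. The E-box letters were present in 4 of the 6 (72.3% of all promoters) and the GC box in 4 (35.7%). Of the NOBOX letters, TAATTA was present in 1 of the 6 (5.29% of all promoters). The other form, TAATTG, was in 0 of the 6 and in 2628 of the 32851 promoters. The RefSeq start of Wee2 lies inside the longer GENCODE span of the gene given at the end.

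Each value below is the authors' deposited mean of a group, a normalized score made from weighted read counts, and the tables used here give 1 such mean per group and no value per library. No spread between replicates was therefore computed and no test run, and every difference is a description of the means. Ratios are of the means with 1 added to each, log2 ratios are their base-2 logarithms, and a gene counts as higher or lower where this ratio is at least 2 and the higher mean at least 10. Depth per library is unknown here. The embryo tables name their mean columns only by letter, and the groups rest on the reading of these letters given with the processing. Each table was normalized separately, so the control oocyte mean of a gene differs from table to table by a nearly constant factor. Control oocyte means in the oocyte table were 0.435 of those in the table with control 2C embryos (median over genes), and means were therefore compared within a table only. In bulk RNA from pooled cells, fewer cells with a transcript and less of it per cell cannot be told apart.

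Kdm1a, the deleted gene, had a mean of 6.37 in mutant oocytes and 921 in control oocytes, and of 14.5 in M-Z+ and 1254 in control 2C embryos. As a check of the oocyte label, none of 12 oocyte identity genes was at 0 in any group, and their means summed to 85584 in mutant and 61403 in control oocytes. These genes summed to 130942 in M-Z+ against 12203 in control 2C embryos, and 18 gene rows typical of the 2C stage summed to 1999.8 against 4588. Of 15 cumulus and granulosa cell genes, which mark the cells around the egg, Amh and Foxl2 were at 0 in all groups. Cyp19a1 made up most of their sum in 3 groups, with 4237 in mutant and 957 in control oocytes and 1488 in M-Z+ embryos, and was at 5.55 in control 2C embryos, where Amhr2 was highest at 551 (2.23 in M-Z+ embryos). The oviduct marker Ovgp1 was at 154 in control and 1.01 in M-Z+ 2C embryos. The part of these other cell types in the levels of the 10 regulators was not tested.

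Ovulated mutant oocytes were set beside control oocytes to ask whether these transcripts already differed before fertilization. Mos was higher in mutant oocytes and Cdc20 lower, while the other 8 regulators lay within a ratio of 2, from -0.35 (Aurkc) to 0.46 (Cdc25b) in log2. Thus 1 gene was higher and 1 lower of 10, where 19.4% and 15.6% of 12690 gene rows were called in these directions, and the median log2 ratio was 0.00 against 0.02 over all rows.

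Mos, the kinase that turns on MAPK signalling for arrest at metaphase of the second division, had a mean of 564 in mutant and 273 in control oocytes. The log2 ratio of 1.04 stood just above the ratio of 2, and 81.3% of gene rows had a lower ratio. Fbxo43, the inhibitor of the anaphase-promoting complex in that same arrest, had means of 1837 and 1942, a log2 ratio of -0.08.

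Cdc20, the activator of the anaphase-promoting complex that ends metaphase, had a mean of 81.9 in mutant and 240.2 in control oocytes, 2.91 times lower. Only 9.13% of gene rows had a lower ratio. Its counterpart Bub1b, the checkpoint kinase BUBR1 that holds CDC20 back until chromosomes are attached, was at 5496 and 6647 (log2 ratio -0.27).

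The other regulators, of prophase arrest and its release among them, lay within a ratio of 2 between the oocyte groups. Gpr3, the receptor whose constant activity keeps cyclic AMP high, was at 223 in mutant and 266 in control oocytes. Pde3a, the phosphodiesterase that breaks down cyclic AMP when meiosis resumes, was at 2160.1 and 2038. Wee2, the oocyte kinase that holds CDK1 inactive, had means of 8487 and 7419. Cdc25b, the phosphatase that activates CDK1 at resumption, had means of 322 and 233, a ratio of 1.38. Aurkc, the Aurora kinase of germ cells, was at 216 and 275. Plat, which encodes tissue plasminogen activator, a protease that eggs secrete, was at 5227 and 4404, a ratio below 2.

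Per kilobase of the longest coding transcript, on the linear scale of the oocyte table, the 10 genes spanned a wide range of levels in control oocytes. Wee2 was highest at 2572 per kb, followed by Bub1b at 1812, Plat at 1744 and Fbxo43 at 481. Aurkc (196), Mos (189), Pde3a (166), Cdc20 (134), Gpr3 (105) and Cdc25b (75.6) lay below 200 per kb. In mutant oocytes Wee2 (2943), Plat (2070.1) and Bub1b (1498) were again the 3 highest, while Mos stood at 389 and Cdc20, at 45.7, was the lowest of the 10. Whether neighbours in these orders differ cannot be judged without a spread.

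The comparison of control 2C embryos with control oocytes, both from the earlier study, gives the course of these transcripts across fertilization in controls. Of the 10 regulators 6 were lower and 2 higher in embryos, where 35.0% and 40.8% of 16674 gene rows were called in these directions. The median log2 ratio of the 10 was -2.27, against 0.21 over all rows.

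Among the 6 lower genes Plat had the lowest ratio, with 409 in control 2C embryos against 10303 in control oocytes, which left 3.97% of the oocyte mean. Bub1b followed with 1052 against 15585, or 6.75%. Next came Fbxo43, at 496 against 4406, and Pde3a, at 552 against 4618, so that 11.3% and 11.9% of their oocyte means remained. Mos was at 98.2 against 647, with 15.2% remaining, and Cdc25b at 152 against 546, with 27.8%. Wee2, at 9002 against 16996 (log2 ratio -0.92), and Aurkc, at 378 against 636 (-0.75), were lower by ratios under 2, although Wee2 reached -1.13 with all ratios centred on their median and -1.15 with groups scaled to equal totals.

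Gpr3 and Cdc20 were the 2 regulators with higher means after fertilization. Gpr3 was at 1538 against 619, a ratio of 2.48, and Cdc20 at 2608 against 561, a ratio of 4.65. Among all rows 62.6% had a lower ratio than Gpr3 and 70.8% a lower ratio than Cdc20.

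**Figure D1:**
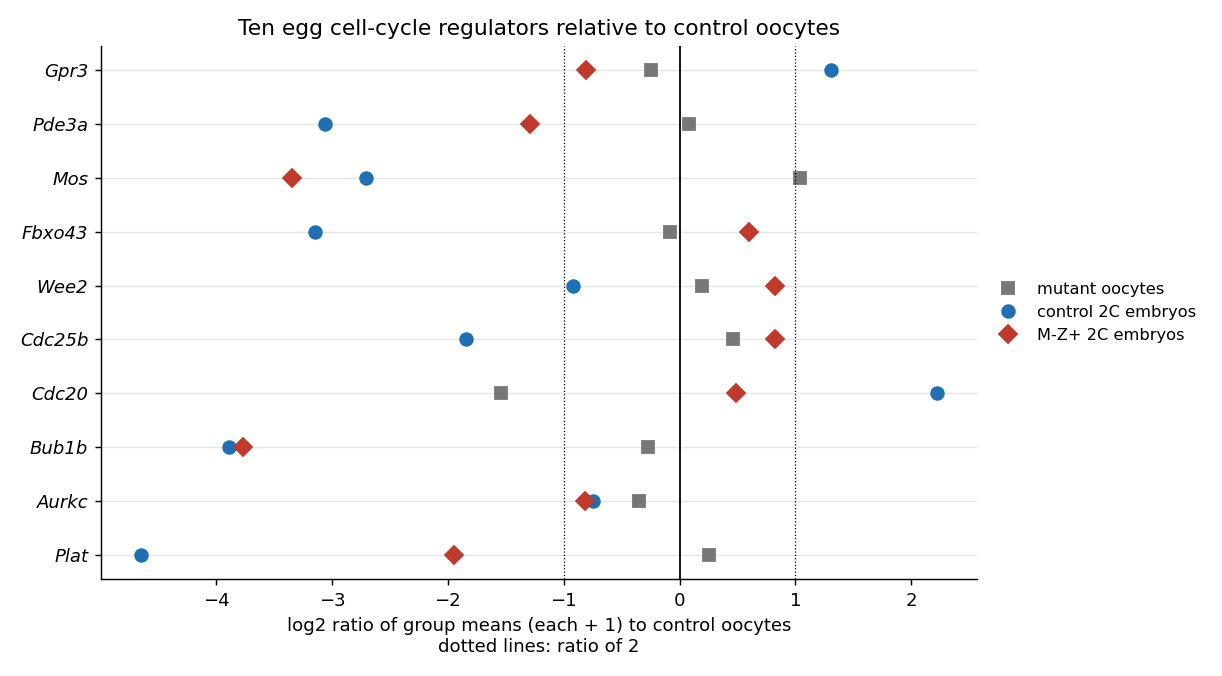
Log2 ratio of each group mean to control oocytes (horizontal axis, 1 added to each mean) for the 10 regulators (vertical axis), with grey squares for mutant oocytes, blue circles for control 2C embryos and red diamonds for M-Z+ 2C embryos, 1 mean per group. Squares lie between -0.35 and 0.46 except for Mos (1.04) and Cdc20 (-1.54). Circle and diamond lie farthest apart for Fbxo43 (-3.15 and 0.60), Plat (-4.65 and -1.95), Cdc25b (-1.84 and 0.82) and Gpr3 (1.31 and -0.81).

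M-Z+ 2C embryos were set beside the same control oocytes in another table, so this comparison shares its control group with the preceding ones. None of the 10 regulators was higher by a ratio of 2 (0, where 28.1% of 14095 gene rows were called higher) and 4 were lower (32.5% of rows). The median log2 ratio was -0.82, against -0.14 over all rows.

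Mos and Bub1b had the lowest ratios. Mos was at 41.4 in M-Z+ embryos and 428 in control oocytes, 9.66% of the oocyte mean. Bub1b was at 753 and 10304, or 7.31%. Plat (1765 and 6803) and Pde3a (1250.1 and 3060.1) were also lower, by ratios of 3.85 and 2.45.

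Fbxo43, Wee2, Cdc25b and Cdc20 had means above those of control oocytes by ratios under 2. Fbxo43 was at 4449.7 against 2925, a ratio of 1.52, where control 2C embryos had held 11.3% of the oocyte mean. Wee2 was at 19942 against 11270.1, Cdc25b at 637 against 361 and Cdc20 at 523 against 372. Gpr3 (234 against 410.1) and Aurkc (237 against 419.9) had lower means, by ratios of 1.75 and 1.77.

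The embryo groups were then compared directly, in the table that holds both. Of the 10 regulators 5 were higher in the M-Z+ group and 2 lower, where 32.3% and 42.1% of 15798 gene rows were called in these directions. The median log2 ratio was 0.85 for the 10 and -0.37 for all rows. The same 7 genes were called with all ratios centred on their median and with groups scaled to equal totals. Of the 12 oocyte identity genes 10 were higher in the M-Z+ group, and whether the regulators differ from those genes was not tested.

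In the arm of cyclic AMP signalling the receptor and the phosphodiesterase differed in opposite directions. Gpr3 had a mean of 232 in M-Z+ and 1063 in control 2C embryos, a log2 ratio of -2.19. Pde3a had a mean of 1234 against 381, a log2 ratio of 1.69.

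Among the regulators of metaphase arrest, Fbxo43 counted as higher in M-Z+ embryos and Mos as neither higher nor lower. Fbxo43 had the highest ratio of the 10, with 4379 in M-Z+ and 340.0 in control 2C embryos (log2 ratio 3.68), and 90.0% of gene rows had a lower ratio. Mos was at 40.2 against 68.2, a log2 ratio of -0.75, which is 59.0% of the control mean and short of a ratio of 2. With centred ratios the log2 ratio of Mos was -0.38, and with equal totals -0.31.

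Both direct regulators of CDK1 were higher in M-Z+ embryos, although WEE2 inhibits the kinase and CDC25B activates it. Wee2 was at 19612 against 6226 (log2 ratio 1.66) and Cdc25b at 628 against 107 (2.55). The ratio was higher than in 75.4% of gene rows for Wee2 and in 83.1% for Cdc25b.

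For the anaphase-promoting complex and its checkpoint, Cdc20 was at 511 in M-Z+ and 1786 in control 2C embryos, a log2 ratio of -1.80. Bub1b was at 744 against 725 (0.04), and Aurkc at 233 against 259 (-0.15), the smallest differences among the 10. The sign for Aurkc turned with the scaling, to 0.22 with centred ratios and 0.30 with equal totals.

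Plat was at 1753 in M-Z+ and 283 in control 2C embryos, a log2 ratio of 2.63, and 83.7% of gene rows had a lower ratio. In the rat, granulosa cells make this protease too. In these groups the summed means of the 15 cumulus and granulosa genes were 1544.8 and 713.8, with 6 and 7 of them at 0. Cyp19a1 alone (1488 against 5.55) made up most of the first sum, and Amhr2 (2.23 against 551) most of the second. Of the 5 such genes past the minimum mean, 2 were higher and 3 lower in M-Z+ embryos. The part of these genes in the Plat difference was not tested.

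**Figure D2:**
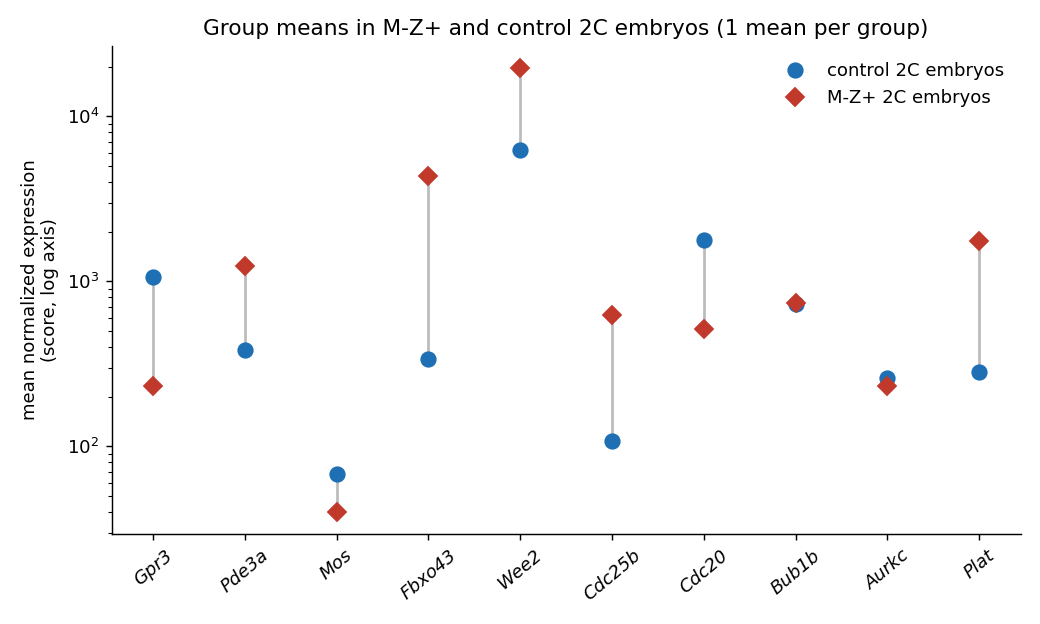
Mean normalized expression score (vertical log axis) of the 10 regulators in control (blue circles) and M-Z+ (red diamonds) 2C embryos, 1 authors' mean per group and therefore no error bars, with a grey line joining the means of a gene. The line is longest for Fbxo43 (340.0 and 4379) and almost absent for Bub1b (725 and 744) and Aurkc (259 and 233).

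Per kilobase, on the linear scale of the embryo table, Wee2 had the highest level in both groups, at 2159 per kb in control and 6800.3 in M-Z+ embryos. Behind it the order differed. Control 2C embryos had Cdc20 (996), Gpr3 (422), Bub1b (198), Aurkc (185) and Plat (112), and then Fbxo43 (84.3), Mos (47.1), Cdc25b (34.5) and Pde3a (31.0). In M-Z+ embryos Fbxo43 (1085) and Plat (694) came next, then Cdc20 (285), Bub1b (203), Cdc25b (203), Aurkc (166), Pde3a (100.3), Gpr3 (92.0) and Mos (27.8). Among the 10, only Wee2 had a higher level than Fbxo43 in M-Z+ embryos, while 6 genes did in control embryos.

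A difference across fertilization with both groups from the same study was obtained for M-Z+ embryos over mutant oocytes by way of control oocytes, that is, as the difference of the log2 ratios to control oocytes. It was placed beside control embryos over control oocytes. These values share the control oocytes, and the labels name an Illumina mRNA-seq kit for the mutant oocyte libraries and a Tru-seq kit for the embryo libraries, which cannot be told apart from stage. Of the 10 regulators 1 was higher and 4 lower in M-Z+ embryos than in mutant oocytes, where 18.9% and 32.6% of 12259 gene rows were called in these directions, and the median log2 ratio was -0.52 against -0.29 over all rows.

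Bub1b and Mos were far lower in embryos than in oocytes in both studies. The log2 ratio of Bub1b was -3.89 in controls and -3.50 in mutants. For Mos it was -2.71 in controls and -4.38 in mutants, the mutant ratio starting from the higher oocyte mean given above.

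Plat and Pde3a were lower in embryos of both studies, but with a larger part left in the mutants. Plat was 25.1 times lower in controls and 4.57 times lower in mutants. Pde3a was 8.36 and 2.59 times lower.

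Fbxo43, Cdc25b and Wee2 had negative log2 ratios in controls and positive ones in mutants. For Fbxo43 these were -3.15 and 0.69, the widest gap of the 10, with a mutant minus control difference of 3.83. For Cdc25b they were -1.84 and 0.35, and for Wee2 -0.92 and 0.63. None of these 3 genes reached a ratio of 2 in mutants.

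Cdc20 was higher in embryos than in oocytes by 4.65 times in controls and 4.09 times in mutants, so its stage ratio was close in both although its mean was lower in both mutant groups. Gpr3 was 2.48 times higher in control embryos than in control oocytes, and 1.47 times lower in M-Z+ embryos than in mutant oocytes. Aurkc had log2 ratios of -0.75 and -0.47.

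**Figure D3:**
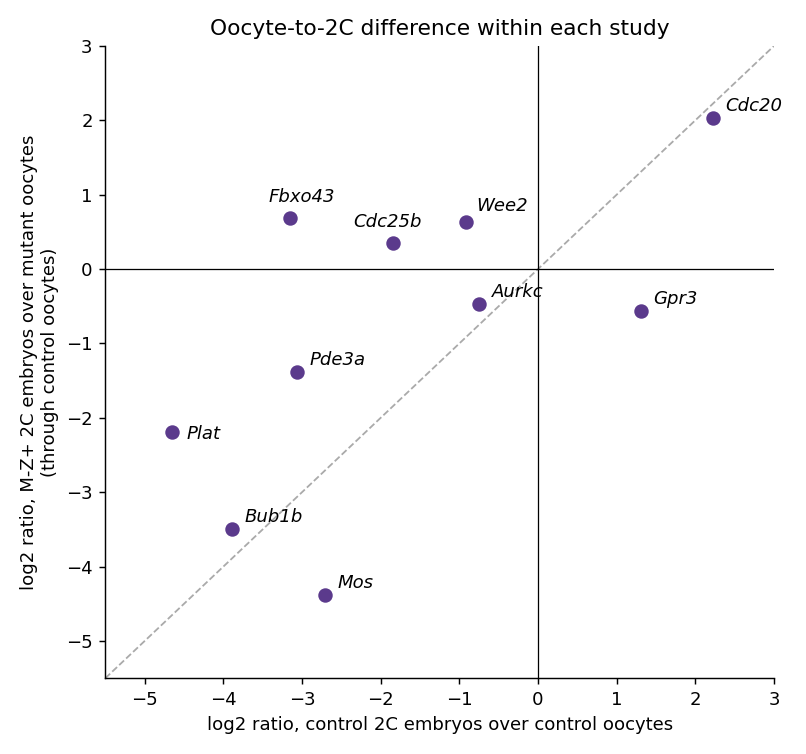
Log2 ratio of 2C embryos to oocytes in the earlier study (controls, horizontal axis) and in mutants by way of control oocytes (vertical axis), 1 point per gene from group means, with a dashed line of equal ratios. Bub1b (-3.89 and -3.50), Cdc20 (2.22 and 2.03) and Aurkc lie near the line, Fbxo43 (-3.15 and 0.69) lies farthest above it, and Gpr3 (1.31 and -0.56) and Mos (-2.71 and -4.38) lie below it.

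Likeness of pattern was measured as the Euclidean distance between genes over the 3 log2 ratios to control oocytes. Within the 10 regulators the shortest distance joined Wee2 and Cdc25b (0.96), then Fbxo43 and Cdc25b (1.43), Plat and Pde3a (1.73), Wee2 and Aurkc (1.74) and Mos and Bub1b (1.82). Among 5198 gene rows with a control oocyte mean of at least 200, Akap8l (0.56), Psmc5 (0.75), Dazap1 (0.82), Serpini1 (0.83) and Psmd4 (0.86) lay nearest to Mos. Akap8l had log2 ratios of 0.50 in mutant oocytes, -2.60 in control embryos and -3.23 in M-Z+ embryos, beside 1.04, -2.71 and -3.34 for Mos.

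Other genes of the same pathways were compared between M-Z+ and control 2C embryos from 7 lists. Over all 15798 gene rows 32.3% were higher and 42.1% lower, and no list was tested against these shares. In the list of 17 genes of CDK1, its cyclins, kinases and phosphatases, 4 were higher and 6 lower, with a median log2 ratio of 0.02. Ccnb2 and Ccnb3, which encode partner cyclins of CDK1, were higher, at 6361 against 2014 and 1515 against 472. Cdk1 itself (417 against 3196) and the cyclin gene Ccna2 (5635 against 11948) were lower. The cyclin gene Ccnb1 (6172 against 8134) lay within a ratio of 2. Wee1, the somatic relative of Wee2, and Cdc25c, another member of the CDC25 family, were lower, where Wee2 and Cdc25b were higher. Wee1 was at 20.8 in M-Z+ and 339.9 in control 2C embryos, and Cdc25c at 223 against 2018. In control embryos Cdc25c was 18.6 times higher than in control oocytes (2941 against 157), while in M-Z+ embryos it was 2.12 times higher (222 against 104).

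Of 10 genes of the MOS and MAPK pathway 4 were higher and 2 lower, with a median of 0.73. Cpeb1, whose protein binds the cytoplasmic polyadenylation element, was 12.7 times higher, at 2014 against 157. Relative to control oocytes its mean was 17.5 times lower in control embryos (227 against 3996), and 1.29 times lower in M-Z+ embryos (2051 against 2643). Mapk3, which encodes the kinase ERK1 downstream of MOS, was at 645 against 145, and Map2k2, the gene of an upstream kinase, MEK2, at 17.9 against 321. Map2k1, of the same gene family as Map2k2, was higher, at 8716 against 2228. Spdya, an activator of CDKs, was at 0.213 in M-Z+ and 89.5 in control 2C embryos.

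Cyclic AMP signalling had 4 higher and 1 lower of 13 genes past the minimum mean, with a median of 0.53. Gnas, the G protein subunit through which GPR3 acts, was at 5138 in M-Z+ against 917 in control 2C embryos, opposite in direction to Gpr3. Prkar2b, a regulatory subunit of protein kinase A, was at 649 against 178, and Adcy6, an adenylyl cyclase, at 18.7 against 53.3.

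For the anaphase-promoting complex and its regulators, 4 of 23 genes were higher and 5 lower, with a median of 0.17. Its subunit genes Cdc26 (42.5 against 463) and Anapc13 (59.5 against 231) were lower, as Cdc20 was, and the ubiquitin pathway genes Ube2d3 (16939 against 5703) and Btrc (2101 against 746) were higher. Btrc encodes an F-box protein that takes part in the destruction of FBXO43 in eggs of the frog Xenopus.

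Spindle checkpoint and kinetochore genes had 3 higher and 6 lower of 16, with a median of -0.23. Trip13, an ATPase that disassembles checkpoint complexes, was 37.1 times lower in M-Z+ embryos, at 82.5 against 3096. Nuf2 (2809 against 488) and Zw10 (774 against 113) were higher, and Spc24 (7.47 against 84.2) lower, while Bub1b was level. In the list of chromosomal passenger, Aurora and cohesin genes, 2 were higher and 5 lower of 15, with a median of -0.44. Pttg1, which encodes securin, the inhibitor of separase, was at 14894 against 4003 and the passenger gene Birc5 at 2642 against 1182, whereas the cohesin genes Smc3 (206 against 2748) and Stag3 (26.9 against 378) were lower.

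Finally, of 7 egg activation and cortical granule genes past the minimum, 4 were higher and 1 lower, with a median of 1.02. Furin, a protease, was at 556 against 62.5 and Serpine2, an inhibitor of serine proteases, at 519.8 against 96.8. Tpst2, a protein sulfotransferase, was at 0.320 against 109.9.

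**Figure D4:**
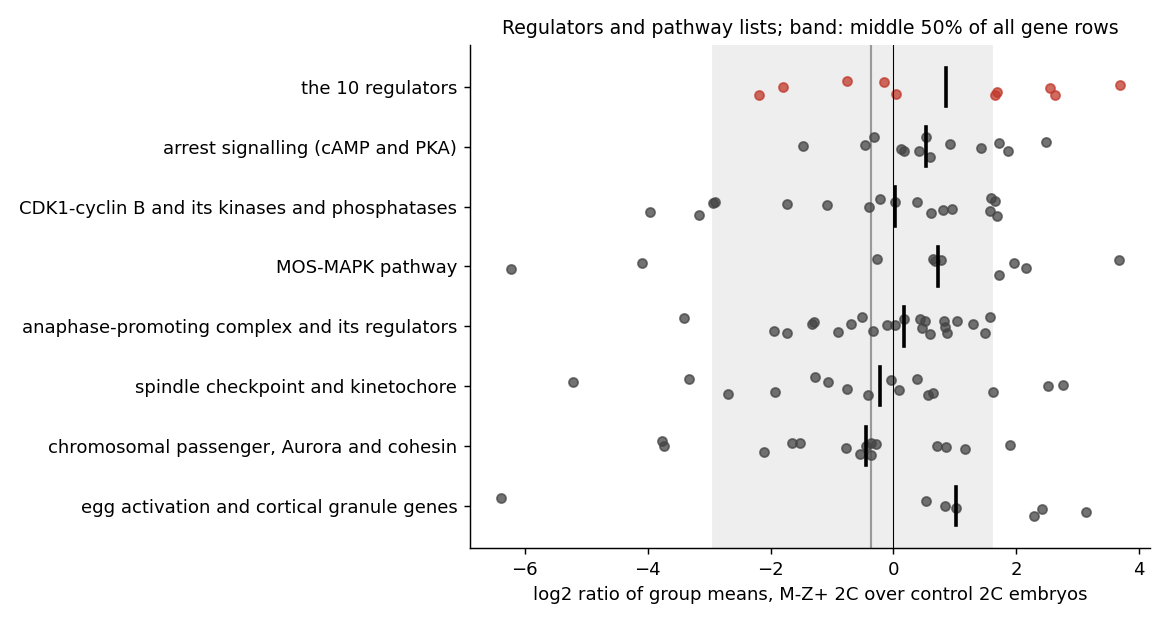
Log2 ratio of M-Z+ over control 2C group means (horizontal axis) for the 10 regulators (red) and 7 pathway lists (grey), 1 point per gene past the minimum mean, with black bars at list medians, a grey line at the median of all gene rows (-0.37) and a band over their middle 50% (-2.94 to 1.61). Medians run from -0.44 for passenger, Aurora and cohesin genes to 1.02 for egg activation genes, with 0.85 for the 10 regulators, and points of every list lie on both sides of 0.

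Between the oocyte groups, where 19.4% of all gene rows were higher and 15.6% lower, the same lists were also counted. The MOS and MAPK list had 0 called of 8 genes past the minimum. Cyclic AMP signalling had 0 higher and 3 lower of 14, among them the adenylyl cyclase gene Adcy9 (40.3 in mutant against 188 in control oocytes) and Prkaca, which encodes a catalytic subunit of protein kinase A (62.7 against 235). Egg activation and cortical granule genes had 1 higher and 3 lower of 8, with Serpine2 at 555 against 2531. The CDK1 list had 1 higher and 1 lower of 17, the anaphase-promoting complex list 1 higher and 0 lower of 23, the spindle checkpoint list 2 higher and 0 lower of 16, and the passenger, Aurora and cohesin list 1 higher and 1 lower of 15. In the last of these, Aurkb (555 in mutant against 273 in control oocytes) and Incenp (851 against 2106), which encode partners in the chromosomal passenger complex that AURKC can join in germ cells, were called in opposite directions. Trip13 was at 133 in mutant and 64.9 in control oocytes, higher there where it was lower in M-Z+ embryos. Mad2l1bp, also of the spindle checkpoint list, was at 260.5 in mutant and 47.0 in control oocytes. In M-Z+ embryos Mad2l1bp was likewise lower, at 214 against 1399.7 in control 2C embryos.

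By position on GRCm38, the 10 genes were spread over 6 chromosomes, and Mos (chromosome 4, from 3870657 to 3872105, minus strand, 1 exon) and Gpr3 (chromosome 4, from 133209340 to 133212536, minus strand, 1 exon) are the 2 with a single exon. Cdc20 lies on the same chromosome, from 118432901 to 118437352. Fbxo43 lies on chromosome 15 from 36150060 to 36164884, Wee2 on chromosome 6 from 40439088 to 40466813 and Cdc25b on chromosome 2 from 131186949 to 131198497. Bub1b is also on chromosome 2, from 118598211 to 118641591, and Pde3a on chromosome 6, from 141249269 to 141507448. Plat lies on chromosome 8 from 22757727 to 22782844 and Aurkc on chromosome 7 from 6995300 to 7003091.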

How the data were processed

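RNA-seq gene tables of mouse oocytes and 2C embryos were used. Each deposited mean is a score that the authors made by trimming first reads to 50 bp, keeping those of average base quality 15 or more, aligning them with BBMap at 95% identity to mm10 genes and repeats, weighting reads with several loci down, median normalizing and averaging within a group. Genes with close copies may therefore share reads. The cDNA was primed with random hexamers and poly(dT). Cufflinks and DESeq are named in the submitters' processing notes too, with versions not given in the sources used here. The tables also hold the authors' fold changes, p-values and q-values, which were not used, and 0 columns of per-library values. The table of repeats was not used.

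In the embryo tables the mean columns carry only the letters a and b. They were taken as b for the first-named and a for the second-named group, although legends in the study give the opposite order. Under this reading the control oocyte columns of all 3 tables that have them agree within a constant factor (median ratios 0.435, 0.658 and 1.51, Spearman's rho at least 0.9999 across genes), and so do the embryo columns (0.983 and 0.688).

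Log2 ratios of means with 1 added, counts at a ratio of 2 with a mean of at least 10, and medians were computed in Python 3.11.15 with pandas 2.3.3. The ratio and calling steps were run on control means multiplied by known factors without noise, which checks their arithmetic only. Without values per library no test of the ratios was run, no interval computed and no library left out. Levels per kilobase used the longest coding transcript. Sequences are from GRCm38 with the GENCODE vM21 annotation and from RefSeq. Members and lists were chosen with earlier results of these data known. Named are the 10 regulators, up to 2 called genes per pathway list and direction with the largest ratio and a mean of at least 50, the 5 genes nearest to Mos, and Kdm1a. The markers Amh, Foxl2, Cyp19a1, Amhr2 and Ovgp1 fall outside this rule, as do Cdk1, Ccna2 and Ccnb1. All of these were chosen after their values were seen.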

Additional observations from a re-analysis of the deposited data

How the results depend on the processing

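Of 280 values recomputed under other pseudocounts, scalings and minimum means, with symbols on more than 1 row left out, by way of control oocytes, or with a ratio of 4 in place of 2, 6 moved beyond 1.5 times, all with the ratio of 4. Many of the 280 could not move. All 10 regulators passed every minimum mean and have a single row, and a ratio of 4 leaves medians unchanged. Centring and equal totals shifted all genes of a comparison nearly alike, by less than 1.5 times. The count of 6 is therefore no measure of robustness. In mutant against control oocytes 0 regulators were then higher and 0 lower, where 8.79% and 6.26% of gene rows were called. In control 2C embryos against control oocytes 1 was higher (31.0% of rows), and in M-Z+ embryos against control oocytes 2 were lower (18.9%). Between M-Z+ and control 2C embryos 3 were higher and 1 lower in the M-Z+ group (21.2% and 32.7% of rows). Signs changed for 2 genes within a ratio of 2, Aurkc between embryo groups (0.22 centred, 0.30 with equal totals) and Fbxo43 between oocyte groups (0.02 with equal totals). With centring or equal totals 7 regulators, Wee2 added, were lower by a ratio of 2 or more in control embryos relative to oocytes. Of all gene rows 37.5% were lower with centring and 38.3% with equal totals. No paired analysis was possible because the tables hold 1 mean per group, and leaving out a replicate could not be run for the same reason. Depth limits are unknown here.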
